A study of Homo sapiens with 21 samples.

Results

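HepG2/C3A spheroids collected at Day 21 were compared with spheroids collected at Day 14, across every gene measured. HepG2/C3A is an established human hepatoma-derived line with many features of hepatocytes, described in the labels as wild type and epithelial-like. The samples were chosen by the day in their labels, and they make up 6 of the 21 libraries of the series, 3 per day. The other libraries come from the 2D monolayer and from spheroids at Days 3, 7, 10 and 28. Cells of both days had been grown in MEM with serum, made to aggregate in ultra-low attachment plates and then held in a ClinoReactor, a rotating vessel for long-term spheroid culture. The labels name no added agent and separate the groups by 7 days of further culture. All libraries share this single tumour-derived line, and the labels name each library a biological replicate without saying whether it came from a culture of its own. The p-values below therefore measure the spread between these libraries, which may be technical. Levels are CPM, counts scaled to the size of each library, from TempO-Seq, a sequencing assay of ligated probe pairs, and probes differ in efficiency between genes, so levels are compared between libraries and never between genes.

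Hepatocytes make most plasma proteins, and these fold and mature in the endoplasmic reticulum (ER) before they are secreted. When unfolded protein builds up in the ER, sensors in its membrane start the unfolded protein response, in which the transcription factors ATF6, XBP1 and ATF4 raise chaperones, disulfide isomerases, degradation factors and amino acid genes. Cells inside a spheroid also receive oxygen and nutrients by diffusion, and the hypoxia factor HIF raises glycolytic enzymes and genes such as VEGFA and CA9 when oxygen is short.

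The 6 libraries held between 28137895 and 35074956 counts each. In a principal component analysis of the 6, the first component carried 39.9% of the variance and placed the Day 14 libraries between -26.81 and -22.66 and the Day 21 libraries between 22.11 and 30.75. The median SD of log2 CPM over genes was 0.136 at Day 14 and 0.150 at Day 21. All 11 hepatocyte markers on a fixed list were detected, and their summed level was 42878 to 49477 CPM at Day 14 and 42273 to 46882 CPM at Day 21. Of 42 markers of biliary, endothelial, stellate and stromal cells and leukocytes, 35 stayed under 1 CPM in each of the 6 libraries. The leukocyte list summed to 157 to 178 CPM at Day 14 and 95.5 to 119 CPM at Day 21, mostly LYZ, the secreted enzyme lysozyme, while 5 of its 10 genes were at 0 in all 6 libraries. The biliary list, mostly SLC4A2, summed to 14.8 to 15.4 CPM and then 21.1 to 24.9 CPM, and the stromal list, mostly PDGFRB, to 1.40 to 2.04 CPM and then 0.24 to 0.60 CPM. In edgeR SLC4A2 was called higher at 0.61 on the log2 scale and PDGFRB lower at -2.27. The stellate list read 54.3 to 65.9 CPM and then 53.4 to 109 CPM, and the endothelial list 1.14 to 2.14 CPM and then 1.21 to 1.78 CPM. The part of these lists in the results below was not tested. In bulk RNA of this kind, fewer cells of a type and less RNA per cell cannot be told apart.

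Of 12345 genes tested, 3289 (26.6%) differed between Day 21 and Day 14 at an adjusted p under 0.05 in edgeR's quasi-likelihood test with Benjamini-Hochberg adjustment, and these are the genes called below. Of them 1718 were higher at Day 21 (13.9% of those tested) and 1571 lower (12.7%). Every count of a gene list below is to be read against these 2 shares. Most changes were small. The median size of a called change was 0.41 on the log2 scale, and 140 genes rose (1.13%) and 172 fell (1.39%) by at least 2-fold. Over all genes tested the median log2 fold change was 0.0036, with the 10th percentile at -0.51 and the 90th at 0.51. The groups of 3 libraries did not overlap for 4738 genes (38.4% of those tested), including 3087 of the 3289 called. The plot of change against level shows that the largest log2 values belong to genes below 1 CPM, whose fold changes rest on few counts.

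**Figure D1:**
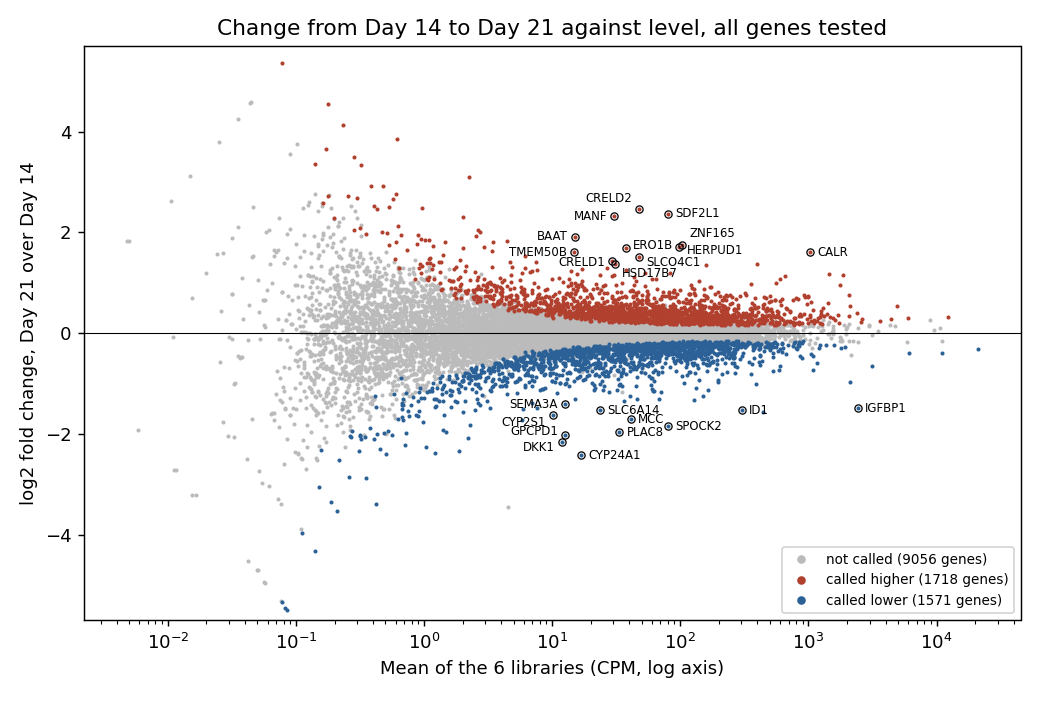
Each point is 1 of the 12345 genes tested, with its mean CPM over the 6 libraries on the log horizontal axis and its log2 fold change, Day 21 over Day 14, on the vertical axis; red marks the 1718 genes called higher, blue the 1571 called lower and grey the 9056 not called. The ringed and named genes are the 12 largest rises and 11 of the 12 largest falls among genes that averaged 10 CPM or more, from CRELD2 at 2.46 to CYP24A1 at -2.42.

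Genes that serve the ER made up 7 of the 12 largest rises. CRELD2, MANF and SDF2L1, small proteins of the ER lumen, led the genes that averaged 10 CPM or more, each about 5-fold higher at Day 21. CRELD2 (chr22:49918167-49927540) read 14.9, 14.9 and 14.1 CPM in the 3 Day 14 libraries and 84.9, 79.6 and 77.0 CPM in the 3 Day 21 libraries. It rose 5.49-fold (log2 fold change 2.46 ± 0.12 SE, edgeR adjusted p = 8.36e-16), and no Day 14 library came near any Day 21 library. SDF2L1 (chr22:21642261-21644298) read 27.8, 26.5 and 23.7 CPM and then 130.6, 143.1 and 129.1 CPM, a rise of 2.37 ± 0.13 SE on the log2 scale (edgeR adjusted p = 1.36e-11). MANF (chr3:51385047-51389397), which is also secreted as a trophic factor, read 9.79, 10.1 and 10.6 CPM and then 45.3, 48.0 and 59.1 CPM (log2 fold change 2.32 ± 0.12 SE, edgeR adjusted p = 1.29e-15). All 3 genes were tightly grouped within each day.

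Other genes among the 12 largest rises act in the ER too. HERPUD1 (chr16:56932048-56944863), a membrane protein of ER-associated degradation, read 46.8, 50.3 and 40.7 CPM at Day 14 and 138.5, 163.2 and 148.4 CPM at Day 21, a log2 fold change of 1.71 ± 0.12 SE (edgeR adjusted p = 9.88e-10). CALR (chr19:12938578-12944489), the lectin chaperone calreticulin, read 529, 509 and 479 CPM and then 1472, 1570 and 1586 CPM. CALR rose by 1.61 ± 0.065 SE (edgeR adjusted p = 1.93e-18). ERO1B, an oxidase that recharges disulfide isomerases, rose by 1.70 ± 0.13 SE, and CRELD1, the membrane relative of CRELD2, by 1.43 ± 0.13 SE. The remaining 5 serve other functions. BAAT (chr9:101360417-101383519), which joins bile acids to glycine or taurine, read 6.53, 5.73 and 6.57 CPM and then 20.2, 22.6 and 28.5 CPM, a rise of 1.92 ± 0.17 SE. ZNF165, a zinc finger protein, read 43.5, 50.3 and 48.0 CPM and then 148.9, 167.2 and 163.0 CPM, a rise of 1.76 ± 0.090 SE. TMEM50B, a small membrane protein, rose by 1.61 ± 0.16 SE, the organic anion transporter SLCO4C1 by 1.51 ± 0.14 SE and the cholesterol synthesis enzyme HSD17B7 by 1.37 ± 0.14 SE. The groups did not overlap for any of the 12, as the rule that named them requires.

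**Figure D2:**
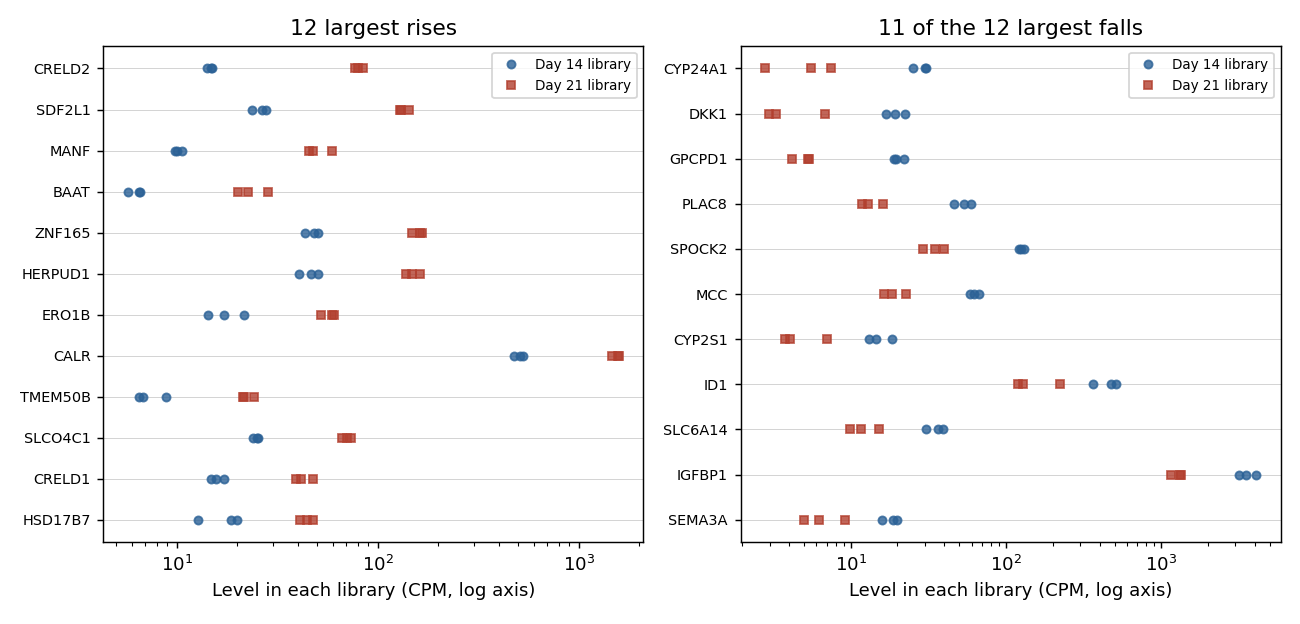
CPM (log axis) of the 12 largest rises, left, and 11 of the 12 largest falls, right, among called genes that averaged 10 CPM or more and whose groups did not overlap; each blue circle is 1 Day 14 library and each red square 1 Day 21 library. CRELD2 moved from 14.1 to 14.9 CPM up to 77.0 to 84.9 CPM, and IGFBP1 from 3162 to 4068 CPM down to 1153 to 1334 CPM.

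Most genes on a list of 24 ER chaperones and degradation factors rose. Of the 23 tested, 20 (87.0%) were called higher, beside 13.9% of all genes, and 0 were called lower. Their median log2 fold change was 1.14, beside 0.0036 over all genes, and 12 rose by at least 2-fold. DERL3, the member not tested, was at 0 in the 6 libraries.

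Among the chaperones, HSPA5, the BiP protein that holds nascent chains in the ER, read 394, 412 and 431 CPM at Day 14 and 873, 828 and 1024 CPM at Day 21. HSPA5 rose by 1.14 ± 0.072 SE on the log2 scale (edgeR adjusted p = 8.61e-14). HSP90B1, the ER form of HSP90, read 1204, 1156 and 1109 CPM and then 2725, 2509 and 2487 CPM, a rise of 1.16 ± 0.069 SE. In both genes every Day 21 library stood near 2-fold above the Day 14 libraries. The co-chaperones of HSPA5 rose as well, DNAJB11 by 1.37 ± 0.080 SE, DNAJC3 by 1.35 ± 0.10 SE and DNAJB9 by 0.73 ± 0.090 SE, as did the nucleotide exchange factor HYOU1 by 1.196 ± 0.083 SE. CANX, the membrane-bound counterpart of CALR, rose by 0.27 ± 0.065 SE, the smallest rise on the list.

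The disulfide isomerases, which form and reshuffle disulfide bonds in secreted proteins, made a graded set. PDIA4 rose by 1.30 ± 0.25 SE from about 2 CPM, PDIA6 by 1.17 ± 0.078 SE and PDIA3 by 0.78 ± 0.14 SE, and ERP27, which binds PDIA3, by 0.61 ± 0.11 SE. In the degradation arm, the ubiquitin ligase SYVN1 rose by 0.66 ± 0.066 SE and its partner SEL1L by 0.81 ± 0.091 SE. EDEM1, which hands misfolded glycoproteins to that ligase, rose by 0.54 ± 0.12 SE, with its highest Day 14 library at 27.5 CPM and its lowest Day 21 library at 28.1 CPM. SEC61B, a subunit of the translocation channel, rose by 0.31 ± 0.10 SE, a call lost without replicate 2 or 3 of Day 14 or replicate 1 of Day 21. The 3 members not called were the transcription factors XBP1 and CREB3L2, at -0.10 ± 0.091 SE and 0.21 ± 0.12 SE, and the degradation factor DERL1, at -0.02 ± 0.14 SE. XBP1 read between 30.0 and 33.4 CPM at Day 14 and between 29.2 and 30.6 CPM at Day 21. A gene count does not report the splicing of XBP1 mRNA, by which its active form is made.

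**Figure D3:**
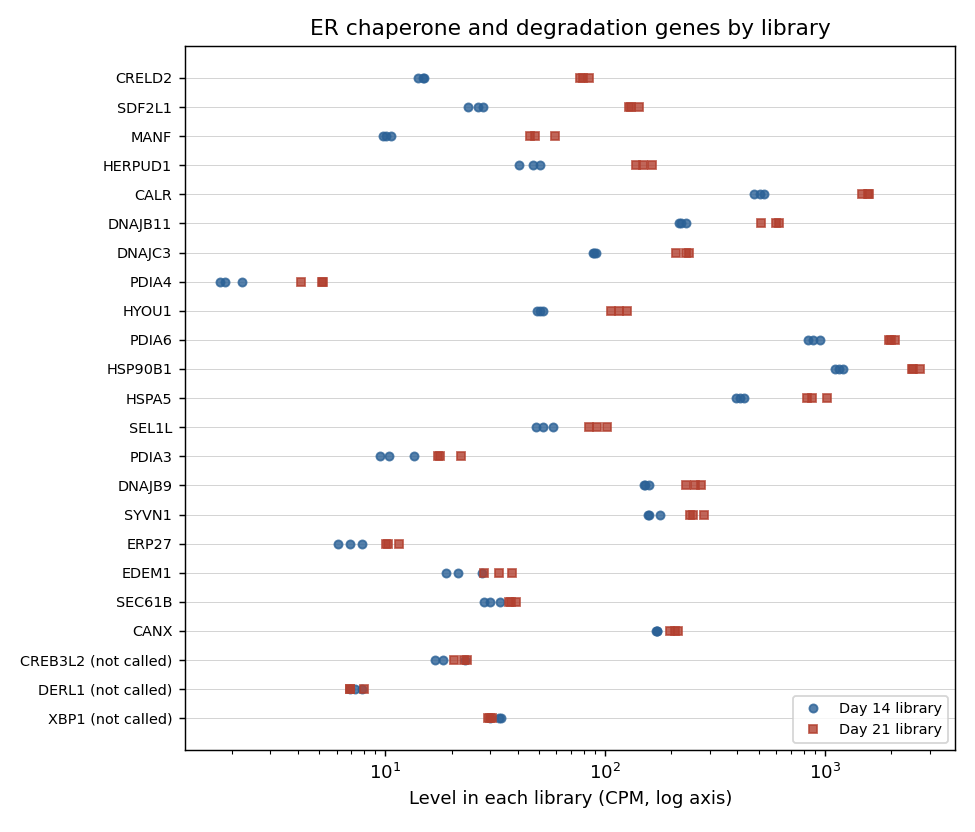
CPM (log axis) of the 23 tested genes of the list of ER chaperones and degradation factors, ordered by log2 fold change, with blue circles for the 3 Day 14 libraries and red squares for the 3 Day 21 libraries. The red squares lie to the right of the blue circles for the 20 called genes and among them for XBP1 and DERL1.

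ATF6 and XBP1 are known to act through the ER stress response element (ERSE), which is CCAAT, a spacer of 9 bases and CCACG, and through ERSE-II, which is ATTGG, any base and CCACG. Both were searched on both strands in the 250 bases before each RefSeq start site of GRCh38.p14. Of the 20 tested list members with a promoter in the RefSeq table, 6 (30%) held an ERSE, beside 15 of 9932 tested genes (0.151%) and 22 of all 27305 promoters (0.0806%). ERSE-II was in 3 of the 20 (15%), beside 11 of 9932 (0.111%) and 14 of 27305 (0.0513%). The CCACG element alone was in 17 of the 20 (85%) and in 4384 of the 9932 (44.1%). These shares describe the promoters of a list of known ER genes. They do not use the change at Day 21 and say nothing about it. Promoters of 9 list members, 8 that rose and XBP1, are shown because each holds a full element, in the gene's own 5′ to 3′ direction, with the element in capitals. CRELD2 (chr22:49918484-49918633), SDF2L1 (chr22:21642109-21642301), HERPUD1 (chr16:56931992-56932141), CALR (chr19:12938379-12938608), HSP90B1 (chr12:103930211-103930409) and CANX (chr5:179698773-179698928) lie on the plus strand, and HSPA5 (chr9:125241344-125241493), HYOU1 (chr11:119057206-119057395) and XBP1 (chr22:28800570-28800719) on the minus strand.
CRELD2: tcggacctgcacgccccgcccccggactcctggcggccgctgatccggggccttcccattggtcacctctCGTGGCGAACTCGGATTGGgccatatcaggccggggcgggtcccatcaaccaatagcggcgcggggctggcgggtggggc
SDF2L1: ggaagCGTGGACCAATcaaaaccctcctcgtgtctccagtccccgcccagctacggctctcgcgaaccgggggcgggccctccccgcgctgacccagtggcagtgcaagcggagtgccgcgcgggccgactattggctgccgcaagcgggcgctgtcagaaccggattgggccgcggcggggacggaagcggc
HERPUD1: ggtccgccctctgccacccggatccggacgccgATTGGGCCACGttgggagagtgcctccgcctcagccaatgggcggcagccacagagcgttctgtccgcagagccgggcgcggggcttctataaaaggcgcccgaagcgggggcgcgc
CALR: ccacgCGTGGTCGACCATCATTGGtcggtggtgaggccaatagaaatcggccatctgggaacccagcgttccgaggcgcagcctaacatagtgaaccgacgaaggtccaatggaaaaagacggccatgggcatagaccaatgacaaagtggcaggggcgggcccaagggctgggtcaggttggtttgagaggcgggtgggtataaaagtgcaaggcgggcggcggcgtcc
HSPA5: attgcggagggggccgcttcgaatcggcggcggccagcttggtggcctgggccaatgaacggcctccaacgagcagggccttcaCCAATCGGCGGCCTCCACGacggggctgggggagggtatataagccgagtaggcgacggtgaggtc
HSP90B1: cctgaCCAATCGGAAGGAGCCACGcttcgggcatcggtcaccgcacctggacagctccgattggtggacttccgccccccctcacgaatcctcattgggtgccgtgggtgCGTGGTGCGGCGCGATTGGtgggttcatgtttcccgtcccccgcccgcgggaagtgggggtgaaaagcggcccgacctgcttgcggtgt
HYOU1: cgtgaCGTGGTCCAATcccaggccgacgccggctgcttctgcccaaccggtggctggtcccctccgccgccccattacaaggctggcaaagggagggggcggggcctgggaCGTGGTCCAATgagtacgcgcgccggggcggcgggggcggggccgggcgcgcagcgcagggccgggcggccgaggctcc
CANX: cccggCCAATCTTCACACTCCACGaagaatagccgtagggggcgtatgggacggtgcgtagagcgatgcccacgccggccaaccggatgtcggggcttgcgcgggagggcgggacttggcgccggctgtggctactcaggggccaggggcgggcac
XBP1: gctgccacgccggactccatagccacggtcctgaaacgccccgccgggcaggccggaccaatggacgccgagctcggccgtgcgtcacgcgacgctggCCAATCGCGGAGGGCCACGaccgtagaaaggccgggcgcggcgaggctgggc

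In these 9 promoters the elements lay between 225 and 34 bases before the start, HSP90B1 with 2 ERSE and HYOU1 with 2 ERSE-II. CRELD2, SDF2L1, CALR, HYOU1 and, for 1 of its 2 elements, HSP90B1 carry the opposite orientation, which reads CGTGG first. Of the 15 tested genes with an ERSE, 10 were called higher at Day 21, 0 lower and 5 were not called. Over all genes tested, 13.9% were called higher and 12.7% lower. The 15 include the 6 list members, and some share a window or an element with another, so they are not separate cases. Outside the list the genes called higher included ERO1B, FICD, an enzyme that modifies HSPA5, at 0.96 ± 0.24 SE, and TRIM5, an antiviral ubiquitin ligase, at 0.95 ± 0.088 SE. ALG12, a mannosyltransferase of N-glycan assembly, rose by 0.95 ± 0.11 SE, and its window overlaps that of CRELD2 on the other strand. EIF2A rose by 0.49 ± 0.059 SE and shares its element in the same way with SERP1, which was not called at 0.26 ± 0.11 SE. Of the 11 genes with ERSE-II, 4 were higher, 1 was lower and 6 were not called. The 3 on the list, SDF2L1, HERPUD1 and HYOU1, were all higher. Outside the list the only gene called higher was NUCB1, a calcium-binding protein of the Golgi, at 0.61 ± 0.070 SE. PLS3, also outside the list, was called lower at -0.50 ± 0.078 SE. XBP1 holds an ERSE and was not called. A match of letters is a description of the window and does not show that a factor was bound there.

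The secretory machinery around these chaperones moved less. Lists of 123 tested genes were put together after values were seen. They covered translocation, glycosylation, oxidation, degradation, vesicle transport and the sensors and effectors of the unfolded protein response. Of the 123, 53 (43.1%) were called higher and 6 (4.88%) lower, beside 13.9% and 12.7% of all genes. The median log2 fold change of the 123 was 0.20. All 5 subunits of the signal peptidase, which cleaves signal sequences, rose, most of all SEC11C at 0.66 ± 0.067 SE. The least, SPCS1 at 0.20 ± 0.066 SE, lost its call without replicate 3 of Day 14 or replicate 1 or 2 of Day 21. That call was also lost when only the 6 libraries entered the fit. Of 10 translocon and TRAP genes 6 rose, TRAM1 most at 1.07 ± 0.10 SE, and SSR1 rose by 0.59 ± 0.067 SE. The oligosaccharyltransferase, which attaches N-glycans, had 6 of 10 higher, with MAGT1 at 0.96 ± 0.12 SE and the catalytic subunit STT3B at 0.51 ± 0.063 SE. Further disulfide isomerases and oxidases had 9 higher and 1 lower of 19, among them ERP44, which retains secretory cargo, at 0.92 ± 0.066 SE. Of 16 further degradation genes 6 rose, including DERL2 at 1.16 ± 0.11 SE and the ubiquitin-conjugating enzyme UBE2J1 at 0.66 ± 0.072 SE. The COPII coat, which carries cargo out of the ER, had 8 of 14 higher, SEC24D most at 0.66 ± 0.069 SE, whereas the COPI coat, which returns it, had 1 of 9. KDELR1 and KDELR2, receptors that return ER proteins, rose by 0.33 ± 0.062 SE and 0.54 ± 0.078 SE.

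The sensors and effectors of the response, which are part of the 123, were mixed. Of 11 tested, 2 were higher and 2 lower, with a median of -0.06. EIF2AK3, the PERK kinase, read 37.0, 39.1 and 37.3 CPM at Day 14 and 55.9, 57.3 and 60.8 CPM at Day 21, and rose by 0.62 ± 0.075 SE. EIF2AK1, a heme-regulated kinase of the same family, rose by 0.29 ± 0.068 SE. EIF2S1, the substrate of both kinases, fell by 0.39 ± 0.061 SE and MBTPS2, a protease that releases ATF6, fell by 0.32 ± 0.092 SE, a call lost without replicate 3 of Day 14. ATF6 itself was at -0.17 ± 0.088 SE and ERN1, the IRE1 sensor, at -0.45 ± 0.33 SE, neither of them called.

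In the amino acid response run by ATF4, falls outnumbered rises. Of 25 tested, 8 were called lower (32.0%, beside 12.7% of all genes), 3 higher (12%, beside 13.9%) and 14 were not called, with a median of -0.02. SLC7A11, which imports cystine, read 16.5, 15 and 20.02 CPM at Day 14 and 9.67, 7.38 and 10.3 CPM at Day 21, and fell by 0.92 ± 0.15 SE. The stress protein SESN2 fell by 0.69 ± 0.12 SE and PPP1R15A, which restores translation, by 0.63 ± 0.075 SE. SLC3A2, the shared heavy chain of several amino acid transporters including that of SLC7A11, moved the opposite way: it read 390, 369 and 391 CPM and then 768, 778 and 886 CPM, a rise of 1.08 ± 0.071 SE. ATF4 itself rose by 0.44 ± 0.095 SE, while ASNS, at 0.11 ± 0.064 SE, and DDIT3, the factor CHOP, at 0.14 ± 0.095 SE, were not called. On a separate list for the methionine cycle and transsulfuration, 4 of 14 tested genes rose and 3 fell, with a median of 0.09. There CTH, the last enzyme of transsulfuration, fell by 1.14 ± 0.083 SE. CDO1 rose by 0.85 ± 0.27 SE, a call lost in 4 of the 16 alternatives. MAT2A, which makes S-adenosylmethionine, fell by 0.39 ± 0.065 SE. Cytosolic and mitochondrial heat shock proteins had 1 higher and 5 lower of 20, with HSPA9, the mitochondrial HSP70, falling by 0.39 ± 0.083 SE.

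The largest falls were of secreted regulators and of enzymes. CYP24A1 (chr20:54153449-54173973), which inactivates vitamin D, read 30.6, 25.2 and 30.0 CPM at Day 14 and 7.49, 5.58 and 2.81 CPM at Day 21, and fell by 2.42 ± 0.31 SE on the log2 scale (edgeR adjusted p = 2.46e-05). DKK1 (chr10:52314296-52318042), a secreted WNT antagonist, read 22.3, 19.4 and 16.98 CPM and then 6.83, 2.97 and 3.29 CPM, and fell by 2.15 ± 0.30 SE. For both genes every Day 21 library read below every Day 14 library. GPCPD1 (chr20:5544404-5611026), a glycerophosphocholine phosphodiesterase, read 22.2, 19.1 and 19.7 CPM and then 5.42, 5.28 and 4.22 CPM, and fell by 2.03 ± 0.13 SE. PLAC8, a small cysteine-rich protein, fell by 1.96 ± 0.10 SE, the matrix proteoglycan SPOCK2 by 1.85 ± 0.083 SE and the WNT regulator MCC by 1.71 ± 0.091 SE. SPOCK2 read 125, 121 and 130 CPM and then 40.03, 34.95 and 29.4 CPM.

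Other large falls ranged down to 1.41. IGFBP1 (chr7:45888357-45893668), an insulin-repressed binding protein of insulin-like growth factors, read 3488, 3162 and 4068 CPM at Day 14 and 1153, 1334 and 1317 CPM at Day 21, and fell by 1.495 ± 0.078 SE (edgeR adjusted p = 9.17e-16). ID1 (chr20:31605283-31606515), a BMP target, read 514, 474 and 365 CPM and then 222, 128 and 119 CPM, and fell by 1.53 ± 0.19 SE. In both the highest Day 21 library stayed below the lowest Day 14 library. The xenobiotic enzyme CYP2S1 fell by 1.63 ± 0.18 SE, the amino acid transporter SLC6A14 by 1.53 ± 0.13 SE and the guidance factor SEMA3A by 1.41 ± 0.16 SE.

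Plasma protein genes split by family. Of 19 tested coagulation and fibrinolysis genes, 9 (47.4%) rose and 3 (15.8%) fell. The 3 fibrinogen chains rose: FGG read 1487, 1600 and 1576 CPM at Day 14 and 2512, 2821 and 2517 CPM at Day 21 (log2 fold change 0.75 ± 0.067 SE), FGB rose by 0.63 ± 0.12 SE and FGA by 0.40 ± 0.081 SE. F12, the contact factor, rose by 0.86 ± 0.19 SE, and SERPINC1, antithrombin, by 0.47 ± 0.10 SE. The vitamin K-dependent F7 fell by 0.53 ± 0.074 SE, prothrombin F2 by 0.40 ± 0.064 SE and PROC, protein C, by 0.28 ± 0.071 SE. KLKB1, prekallikrein, was called higher at 1.384 ± 0.42 SE from under 1 CPM, a call lost without replicate 3 of Day 14 or replicate 2 of Day 21. Of 18 tested albumin and carrier protein genes, 6 rose and 3 fell, with A1BG at 0.74 ± 0.065 SE and HPX, hemopexin, at 0.89 ± 0.21 SE among the rises. ALB and AFP, albumin and its fetal counterpart, were not called, at 0.06 ± 0.14 SE and 0.10 ± 0.15 SE.

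On the complement and acute phase lists, falls outnumbered rises at Day 21. The acute phase list does not hold the fibrinogen chains or HPX, which are also acute phase genes and rose. Of 17 tested complement genes 9 (52.9%) fell, 0 rose and 8 were not called, and the list's median was -0.32 on the log2 scale. C5, from which the membrane attack complex starts, read 537, 502 and 510 CPM at Day 14 and 247, 273 and 251 CPM at Day 21, and fell by 1.01 ± 0.062 SE. MBL2, the lectin that starts the lectin pathway, read 97.4, 89.7 and 104 CPM and then 46.7, 34.3 and 35.8 CPM, and fell by 1.32 ± 0.095 SE. The regulator CFI fell by 0.57 ± 0.071 SE. C4A and C4B were also lower, but they are near-identical copies whose counts could have been split between them. Of 10 tested acute phase genes 7 (70%) fell, 1 rose and 2 were not called, with a median of -0.69. The list holds 14 genes, and those not tested were CRP, SAA1, SAA2 and LBP. Each of these had between 0 and 4 counts in the 6 libraries together, so the 70% does not cover them. SERPINA3, antichymotrypsin, read 190, 143 and 216 CPM and then 69.4, 58.6 and 91.3 CPM, and fell by 1.33 ± 0.22 SE. CP, ceruloplasmin, fell by 0.99 ± 0.074 SE and LCN2, lipocalin 2, by 0.77 ± 0.12 SE. HAMP, the iron hormone hepcidin and also a BMP target, fell by 1.92 ± 0.38 SE from 1.54 to 3.08 CPM to 0.29 to 1.15 CPM. Without replicate 1 of Day 21, the library at 1.15 CPM, the HAMP log2 fold change was -2.905. SERPINA1, the list's rise, gained 0.27 ± 0.071 SE.

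Among genes raised by low oxygen, falls outnumbered rises at Day 21. Of 25 tested hypoxia response genes 10 (40%) fell, 1 (4%) rose and 14 were not called, with a median of -0.31. VEGFA, the angiogenic growth factor, read 288, 286 and 288 CPM at Day 14 and 200, 208 and 220 CPM at Day 21, and fell by 0.46 ± 0.061 SE (edgeR adjusted p = 7.20e-07). NDRG1, a stress-responsive gene, read 81.9, 84.0 and 89.8 CPM and then 38.3, 37.0 and 39.7 CPM, a fall of 1.15 ± 0.16 SE. LOX, which cross-links collagen, read 246, 232 and 203 CPM and then 119, 83.1 and 110 CPM, and fell by 1.12 ± 0.12 SE. EGLN3, a prolyl hydroxylase that marks HIF for degradation, fell by 1.22 ± 0.21 SE, BHLHE40 by 1.35 ± 0.19 SE and PDK1, which holds pyruvate back from mitochondria, by 0.73 ± 0.094 SE. CA9, the carbonic anhydrase, fell by 2.31 ± 0.58 SE but stayed below 1 CPM in all 6 libraries. P4HA2, a collagen prolyl hydroxylase, was the gene that rose, by 0.24 ± 0.082 SE, a call lost without replicate 1 or 3 of Day 14 or replicate 1 or 2 of Day 21. The P4HA2 call was also lost when only the 6 libraries entered the fit.

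Glycolysis followed the same direction, with 13 of 24 tested genes lower (54.2%), 0 higher and a median of -0.30. LDHA, lactate dehydrogenase, read 389, 345 and 308 CPM at Day 14 and 264, 234 and 230 CPM at Day 21, and fell by 0.52 ± 0.076 SE. HK2, which starts glycolysis, fell by 0.49 ± 0.090 SE, ALDOA by 0.24 ± 0.067 SE, ENO1 by 0.40 ± 0.095 SE and PFKFB3, a regulator that read at most 1.97 CPM, by 1.31 ± 0.30 SE. SLC2A3, a glucose transporter with a close paralogue, read 72.9, 68.3 and 41.0 CPM and then 41.0, 24.9 and 22.1 CPM, a fall of 1.05 ± 0.23 SE. The Day 14 and Day 21 groups of SLC2A3 all but touched, and its adjusted p was 0.103 in edgeR when only the 6 libraries entered the fit. Oxidative phosphorylation genes had 7 of 39 higher (17.9%) and 3 lower (7.69%), beside 13.9% and 12.7% of all genes.

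Lipid and bile acid genes held rises. Of 24 tested genes of cholesterol synthesis and uptake, 11 (45.8%) rose and 1 (4.17%) fell. HSD17B7 read 20.1, 18.6 and 12.8 CPM at Day 14 and 47.6, 44.4 and 41.0 CPM at Day 21. STARD4, a sterol carrier, rose by 0.94 ± 0.10 SE and the epoxidase SQLE by 0.60 ± 0.098 SE. The rise was partial against Day 10, where HSD17B7 stood at 75.2 ± 1.67 CPM (SD, n = 3). Of 11 tested bile acid synthesis genes 6 rose and 2 fell. The rises included AKR1D1, a reductase of the steroid ring, at 0.91 ± 0.094 SE and CYP27A1 at 0.36 ± 0.072 SE. CYP39A1 was among the falls, at -1.35 ± 0.42 SE, a call lost without replicate 1 of Day 14 or replicate 3 of Day 21. CYP7A1, the rate-limiting enzyme, read 0.48, 0.49 and 1.17 CPM and then 1.64, 2.58 and 1.47 CPM, and was called higher at 1.41 ± 0.42 SE. The call for CYP7A1 was lost without replicate 1 or 2 of Day 14 or replicate 2 of Day 21, with adjusted p up to 0.096 in edgeR. Fatty acid and triglyceride synthesis had 1 higher and 1 lower of 20.

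Drug metabolism genes held more rises than falls. Of 20 tested phase I genes 8 rose (40%) and 2 fell (10%), and of 18 phase II genes 5 rose (27.8%) and 0 fell. ADH6, an alcohol dehydrogenase, read 82.6, 90.04 and 80.4 CPM at Day 14 and 130, 140 and 136 CPM at Day 21, a rise of 0.68 ± 0.079 SE. SULT2A1, a sulfotransferase of bile acids and steroids, rose by 1.10 ± 0.16 SE, and GSTA1 by 1.71 ± 0.34 SE from 0.83 to 2.07 CPM, with reads that its near-identical copy GSTA2 may share. CYP2B6, a target of the receptor NR1I3, fell by 1.96 ± 0.46 SE and read below 4 CPM throughout. NR1I3 itself rose by 1.19 ± 0.25 SE from 3.07 to 3.81 CPM to 7.63 to 8.88 CPM. CYP3A4 read at most 1.06 CPM and was not called, at 0.72 ± 0.46 SE. Of 28 tested hepatocyte transcription factors 7 (25%) rose and 5 (17.9%) fell, beside 13.9% and 12.7% of all genes. The bile acid receptor NR1H4 rose by 0.62 ± 0.095 SE and its target NR0B2 fell by 0.48 ± 0.067 SE, while HNF4A, at 0.04 ± 0.10 SE, was not called. NRF2 antioxidant genes had 10 of 25 higher (40%) and 1 lower. The fall, in the ferritin chain FTL, lost its call without replicate 1 or 2 of Day 14 or replicate 2 or 3 of Day 21 and was -0.30 without replicate 1 of Day 21, beside -0.19. The FTL call was also lost with the 6 libraries alone, without robust estimation and with Days 10, 14, 21 and 28 alone. The rises included GCLC, which starts glutathione synthesis, at 0.42 ± 0.068 SE and AKR1C2, one of several near-identical AKR1C copies, at 0.96 ± 0.091 SE. NQO1 and HMOX1, at 0.16 ± 0.071 SE and -0.22 ± 0.11 SE, were not called.

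Falls outnumbered rises among TGF-beta and BMP targets, immediate early genes and matrix genes, but not among WNT targets. Of 12 tested TGF-beta and BMP targets 7 (58.3%) fell, 0 rose and the median was -0.77. Besides ID1, ID2 fell by 0.80 ± 0.092 SE, ID3 by 1.11 ± 0.27 SE and BAMBI, a decoy receptor, by 0.54 ± 0.064 SE. The groups overlapped for ID3, whose lowest Day 14 library read 7.51 CPM and highest Day 21 library 7.83 CPM. Of 28 tested immediate early genes 11 (39.3%) fell, 0 rose and the median was -0.56. HBEGF, a growth factor of the epidermal family, read 27.1, 30.7 and 29.1 CPM at Day 14 and 15.1, 11.4 and 13.4 CPM at Day 21, and fell by 1.12 ± 0.11 SE. FOSL1, an AP-1 subunit, fell by 0.95 ± 0.092 SE and EGR1, an early growth response factor, by 0.70 ± 0.12 SE. CCN2, a target of YAP and TGF-beta, read 189, 178 and 186 CPM and then 95.2, 88.8 and 105 CPM, a fall of 0.94 ± 0.076 SE. Of 25 tested matrix and integrin genes 12 (48.0%) fell and 1 rose, with the laminin chain LAMB2 falling by 0.57 ± 0.072 SE and the integrin ITGA2 by 1.00 ± 0.22 SE. The rise, in SPARC, lost its call without any single Day 14 library and without replicate 1 or 2 of Day 21. WNT targets went both ways, with 7 (38.9%) higher and 5 (27.8%) lower of 18, such as AXIN2 at 0.66 ± 0.17 SE and DKK4, which fell by 0.65 ± 0.11 SE.

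Mitosis and DNA replication genes were called higher no more often than all genes, though both lists had medians above that of all genes. Of 28 tested mitosis genes 2 (7.14%) were called higher and 0 lower, and of 30 DNA replication genes 4 (13.3%) were higher and 0 lower, beside 13.9% and 12.7% of all genes. The median log2 fold change was 0.17 for mitosis and 0.19 for DNA replication, beside 0.0036 over all genes. Every tested mitosis gene stood above 0, the lowest at 0.0073. MKI67 read 33.3, 31.7 and 22.1 CPM at Day 14 and 35.9, 24.3 and 30.8 CPM at Day 21, and was not called at 0.06 ± 0.17 SE. CDC6, which licenses replication origins, rose by 0.80 ± 0.14 SE and CDT1, its partner, by 0.70 ± 0.097 SE. The CDK inhibitor CDKN1A read at most 1.26 CPM and was not called at 0.49 ± 0.40 SE. Cytosolic ribosomal proteins had 15 of 38 higher (39.5%) and 0 lower, with RPL13 at 0.63 ± 0.095 SE, and many pseudogenes resemble these genes. Leaving out replicate 2 of Day 21 reduced that count to 9. Ribosome biogenesis factors had 12 of 28 lower (42.9%) and 2 higher, RRP9 falling by 0.79 ± 0.16 SE and RRP12 by 0.59 ± 0.11 SE, with NPM1, nucleophosmin, rising by 0.38 ± 0.077 SE. ACTB was not called, at -0.09 ± 0.077 SE. The plot of called shares by list sets these counts against the background.

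**Figure D4:**
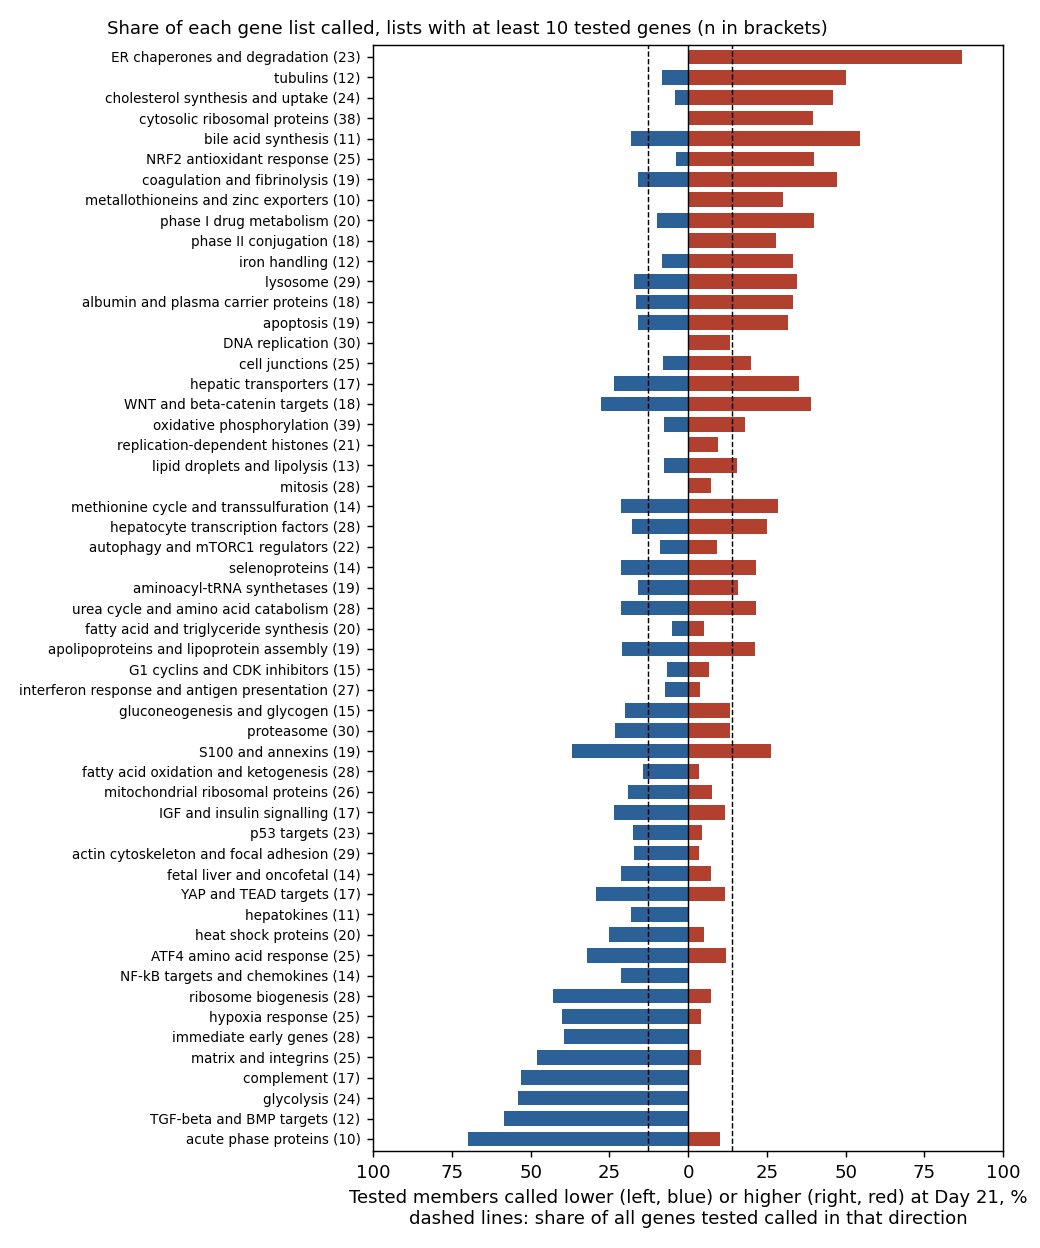
For each list with at least 10 tested genes (number in brackets), the bar to the right is the percent of tested members called higher at Day 21 and the bar to the left the percent called lower; dashed lines mark 13.9% and 12.7%, the shares of all genes tested. Lists are ordered by the difference of both shares, from ER chaperones and degradation at 87.0% higher to acute phase proteins at 70% lower.

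Whether a gene changed differently between Day 14 and Day 21 than in the neighbouring intervals was tested as a difference of 2 changes in the same edgeR fit. The intervals share the Day 14 or the Day 21 libraries, so a library that reads high or low there enters both changes. Against Day 21 to Day 28 the difference was positive for 1883 genes (15.3%) and negative for 1396 (11.3%). Against Day 10 to Day 14 it was positive for 2280 (18.5%) and negative for 2145 (17.4%). The intervals span unequal numbers of days, 7 for Day 14 to Day 21 and 4 for Day 10 to Day 14.

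On the ER list the difference to Day 21 to 28 was positive for 17 of 23 genes and negative for 0, and that to Day 10 to 14 was positive for 14 and negative for 1, XBP1. The list's median log2 fold change was 1.14 in this interval, 0.19 in the one before and -0.08 in the one after. Set against the monolayer, the list's median was -0.67 at Day 14 and 0.45 at Day 21. CRELD2 averaged 28.2 ± 2.495, 14.65 ± 0.465, 80.5 ± 4.04 and 73.1 ± 12.98 CPM at Days 10, 14, 21 and 28 (SD, n = 3 each). Its change exceeded that of the interval before by 3.40 ± 0.22 SE and that of the interval after by 2.60 ± 0.19 SE. HSPA5 had another course, since its monolayer libraries already read 1134, 1215 and 1095 CPM, above its Day 21 libraries.

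IGFBP1 and GPCPD1, both among the largest falls, stood higher again at Day 28. IGFBP1 averaged 732 ± 64.8, 3573 ± 459, 1268 ± 99.98 and 4900 ± 183 CPM at Days 10, 14, 21 and 28 (SD, n = 3 each), and Day 21 was thus a dip between the higher Days 14 and 28. Its difference of changes was -3.45 ± 0.14 SE against the later interval. GPCPD1 stood at 20.3 ± 1.64, 4.97 ± 0.66 and 11.99 ± 1.945 CPM at Days 14, 21 and 28 (SD, n = 3 each). Hypoxia response genes had a negative difference against the later interval for 11 of 25 and a positive one for 0, and their median went from -0.31 to 0.44 after Day 21. For glycolysis the difference was negative for 10 of 24 and positive for 0, and for immediate early genes negative for 13 of 28 and positive for 0. Against the earlier interval the difference was positive for 8 and negative for 3 hypoxia genes. For glycolysis it was positive for 9 and negative for 2, and for immediate early genes positive for 1 and negative for 15. The hypoxia and glycolysis medians had already fallen from Day 10 to Day 14, at -0.57 and -0.90, beside -0.31 and -0.30 from Day 14 to Day 21. BAAT showed the opposite course to IGFBP1, at 6.28 ± 0.472, 23.75 ± 4.305 and 13.3 ± 2.02 CPM at Days 14, 21 and 28 (SD, n = 3 each). ID1 averaged 1216 ± 104, 451 ± 76.8, 156 ± 56.9 and 194 ± 11.4 CPM at Days 10, 14, 21 and 28 (SD, n = 3 each). Its difference to the later interval was -1.84 ± 0.33 SE (edgeR adjusted p = 0.00076), that to the earlier interval was -0.10 ± 0.32 SE and was not called, and its change from Day 21 to Day 28 was 0.31 ± 0.19 SE and was not called.

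**Figure D5:**
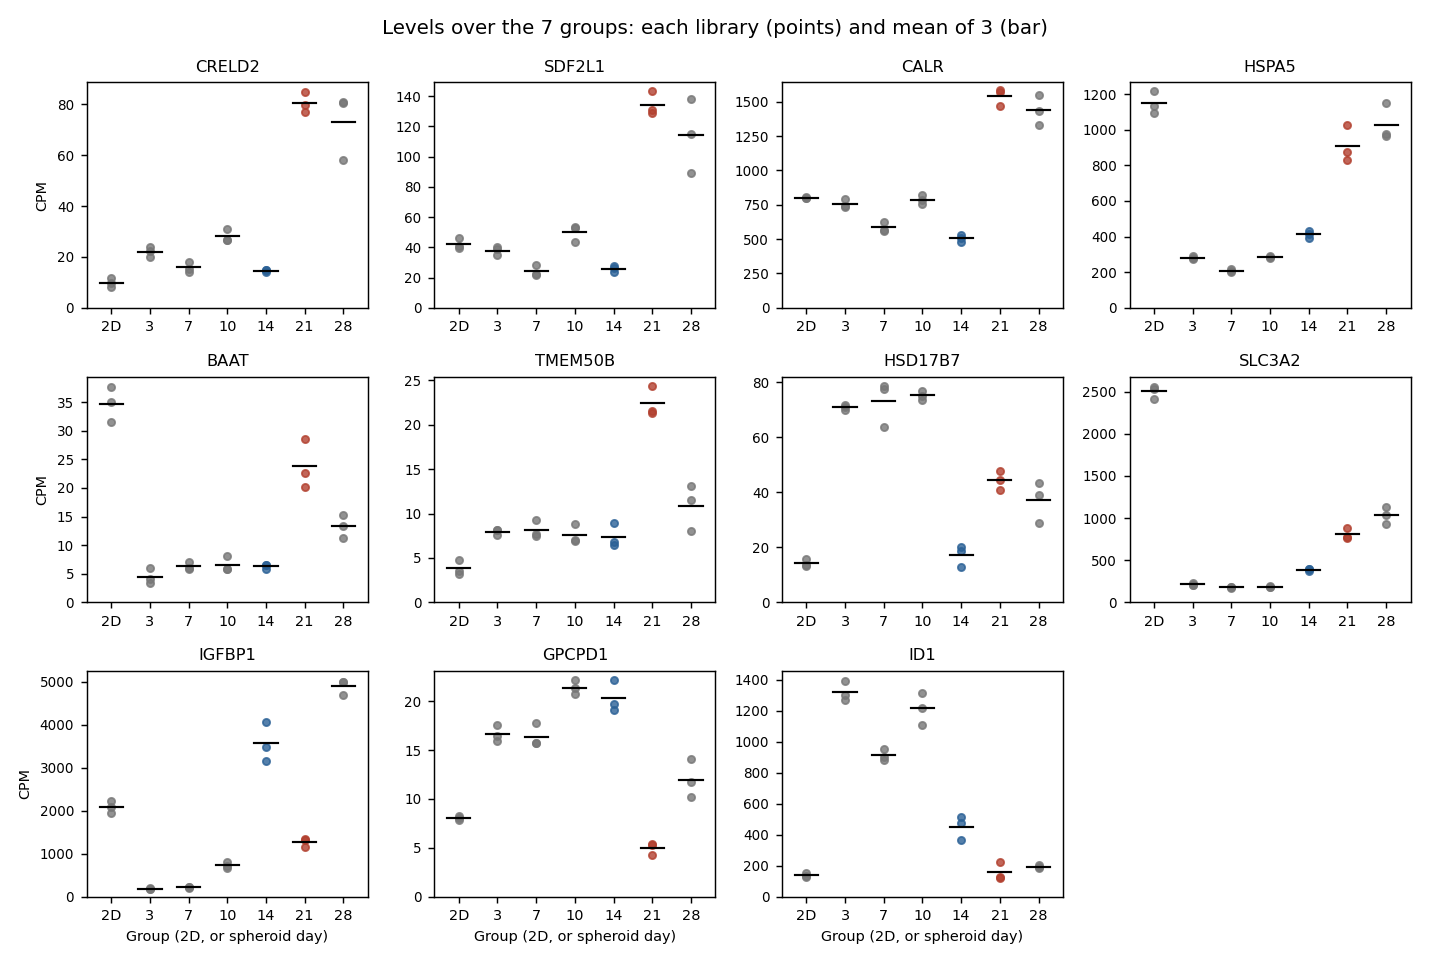
CPM on a linear axis in each library (points) and the mean of 3 (bar) for 11 genes over the monolayer (2D) and the spheroid days, with Day 14 in blue and Day 21 in red. CRELD2, SDF2L1 and CALR step up between Days 14 and 21 and stay near that level at Day 28, whereas IGFBP1 and GPCPD1 are lower at Day 21 than at Days 14 and 28.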

How the data were processed

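TempO-Seq libraries of HepG2/C3A cells were analysed as raw counts per gene from the table the authors deposited. Per the submitters' processing notes the tools were fastp 0.23.2, STAR 2.7.10b, bcl2fastq 2.20.422 and DESeq2 1.38.0 with the build GRCh38.p13; roles, and how a gene's probes were combined, are not given there. Columns were matched to samples by name, and 0 columns belonged to no sample. Total counts were 28137895 to 35074956 in the 6 libraries compared, and counting error covers only part of their spread.

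All 21 libraries, 7 groups of 3, entered 1 fit in edgeR 4.0.16 (R 4.3.3, limma 3.58.1) with TMM scaling, filterByExpr at a minimum count of 10 and the robust quasi-likelihood test, so that the spread was estimated with 14 residual degrees of freedom. The filter left 12345 of 19683 genes and removed 0.0108% of counts. Day 21 minus Day 14 was the contrast, with Benjamini-Hochberg adjustment over all genes tested and a threshold of 0.05. SE is the log2 fold change divided by the root of its F statistic. CPM uses TMM-scaled library sizes. The fit was tested on simulated data. The labels do not say that same-numbered libraries of the 2 days belong together, so no replicate block was used in the main fit. Deviations from the day's mean correlated at 0.051, 0.006 and 0.089 between same-numbered libraries and at -0.098 to 0.049 between the others. These values do not settle whether the libraries pair. No pair of replicates within a day agreed within sampling noise (chi-square per degree of freedom 9.25 to 28.2).

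The 60 lists (1302 genes, 1152 tested) and the comparison were chosen with earlier results of these data known, and 14 further lists were added after values were seen. Named genes were the 12 largest rises and 12 largest falls that averaged 10 CPM or more and did not overlap, up to 3 per list by size of change, 12 fixed genes, and the 3 most extreme values in each direction of each difference of changes. Values of 2 genes are not reported here, though both entered the fit and the counts. Other list members and genes holding a promoter element were named after their values were seen. Promoters come from the RefSeq table on GRCh38.p14, with 1 start per gene, searched over 250 bases before it. Gene positions are those of GENCODE 29 on GRCh38. Alternatives were library totals, DESeq2 size factors, DESeq2 1.42.0, no filter, a mean of at least 10 CPM, no robust estimation, a replicate block, the 6 libraries alone and each library left out. A fit of Days 10, 14, 21 and 28 alone was added after seeing the data.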

Additional observations from a re-analysis of the deposited data

Results flagged for a closer look

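For the 10 genes given here the change between Day 14 and Day 21 differed from the change in a neighbouring interval by the most among genes reported here that met the same conditions on level and overlap. Each value is the log2 change from Day 14 to Day 21 minus the log2 change in the other interval, from edgeR, and the intervals share libraries. Against Day 21 to Day 28 the most positive values were those of ODAM, a secreted protein of tooth enamel formation, at 3.48 ± 0.23 SE, BAAT at 2.76 ± 0.27 SE and TMEM50B at 2.67 ± 0.26 SE. ODAM stood at 14.8 ± 4.44 CPM at Day 14, 29.2 ± 2.09 at Day 21 and 5.15 ± 0.26 at Day 28 (SD, n = 3 each). The most negative were IGFBP1 at -3.445 ± 0.14 SE and GPCPD1 at -3.30 ± 0.23 SE. Against Day 10 to Day 14 the most positive were HSD17B7 at 3.50 ± 0.26 SE, CRELD2 at 3.40 ± 0.22 SE and TICRR, a replication initiation factor, at 3.34 ± 0.28 SE. TICRR stood at 28.97 ± 1.31 CPM at Day 10, 4.08 ± 1.02 at Day 14 and 5.83 ± 0.508 at Day 21 (SD, n = 3 each), so its value comes mostly from the fall before Day 14. The most negative were GPR83, a G protein-coupled receptor, at -4.95 ± 0.47 SE, SERPINA3 at -4.21 ± 0.37 SE and IGFBP1 at -3.78 ± 0.13 SE. GPR83 stood at 1.47 ± 0.319 CPM at Day 10, 23.5 ± 4.79 at Day 14 and 12.4 ± 1.27 at Day 21, and SERPINA3 at 24.8 ± 3.16, 183 ± 36.9 and 73.1 ± 16.7 CPM on these days (SD, n = 3 each).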

How the results depend on the processing

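Over 16 alternatives the number of called genes lay between 2616 and 3997, of 3289 in the fit reported, and 0 genes were called in both with opposite sign. Leaving out single libraries gave 2616 to 3008 called genes and 19 to 20 of the ER list, and DESeq2 called 3424 of 11910. With the replicate block, 3499 genes were called over 21 libraries and 3997 over the 6, beside 2826 over the 6 without it. The cytosolic ribosomal proteins called were 15 in the fit reported and 25 over the 6 with the block. That list's count was 9 to 22 when single libraries were left out, the 9 without replicate 2 of Day 21. When a mean of at least 10 CPM was required, 84 of 7002 genes tested changed by at least 2-fold, beside 312 of 12345. The 312 thus rest largely on genes below that level. Scaling by library totals made 43.9% of calls rises, beside 52.2%, with a median over all genes of -0.033. Among the named genes a sign change arose only for 6 uncalled ones. The HNF4A log2 fold change was -0.0011 with library totals. With single libraries left out, the log2 fold change of ALB ranged from -0.071 to 0.21, AFP from -0.0024 to 0.17, HNF4A from -0.022 to 0.11, MKI67 from -0.095 to 0.19, CDKN1A from -0.085 to 0.93 and DERL1 from -0.087 to 0.036. Depth limits genes near or below 1 CPM, such as CYP7A1 and CA9, whose calls rest on few counts.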

Other observations

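Cell junction, tubulin, iron and lysosome genes belonged to no comparison above. Of 25 tested cell junction genes, 5 (20%) rose and 2 (8%) fell, beside 13.9% and 12.7% of all genes. CDH1, the epithelial cadherin, read 28.97, 26.4 and 27.9 CPM at Day 14 and 56.2, 63.8 and 59.4 CPM at Day 21, and CDH2, the other main cadherin of hepatocytes, read 122, 123 and 98.7 CPM and then 176, 202 and 197 CPM. Both cadherins thus rose together, by 1.11 ± 0.14 SE and 0.75 ± 0.081 SE on the log2 scale in edgeR. Of 12 tested tubulins 6 rose and 1 fell, with TUBB3 at 0.99 ± 0.11 SE, and tubulin genes are close in sequence, so their counts may share reads. STEAP3, a reductase that helps iron leave endosomes, read 32.7, 29.3 and 34.1 CPM and then 79.1, 70.2 and 70.5 CPM, a rise of 1.19 ± 0.093 SE. Of 29 tested lysosomal genes 10 rose and 5 fell, among them the cholesterol transporter NPC2, which rose by 0.48 ± 0.078 SE, and the protease CTSL, which fell by 0.58 ± 0.11 SE. Of 19 tested S100 and annexin genes 5 rose and 7 fell, with S100P falling by 0.65 ± 0.069 SE and ANXA6 rising by 0.99 ± 0.092 SE.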
